A study of Mus musculus with 11 samples.

Results

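A set of 10 genes of lipid storage and breakdown was followed here in the mouse eye with and without miR-211. The 5 perilipins that coat lipid droplets (Plin1, Plin2, Plin3, Plin4 and Plin5), the droplet fusion factor Cidec, the lipases Pnpla2 and Lipe, the fatty acid carrier Fabp4 and the lipase inhibitor G0s2 were taken by symbol, by a rule with no threshold on their values. They are 10 of the 38393 genes listed in the files, and all 10 passed the expression filter that left 15767 genes for testing. RNA was measured in 11 libraries from whole eyes of C57BL/6 mice aged 1 to 2 months, after the lens and cornea had been taken off. Of these, 5 libraries came from wild-type (WT) mice and 6 from miR-211-/- (KO) mice, which carry a constitutive deletion of the precursor of miR-211. The mice were kept on a C57Bl/6J background, and controls were littermates of the same age. Each library stood for a separate animal. All KO mice were male, and the WT mice were 2 males and 3 females.

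Fat is stored in cells as droplets of triglyceride under a single layer of phospholipid, and perilipins on that layer decide which enzymes reach the fat. In fat cells Plin1 holds back lipolysis until it is phosphorylated, Cidec fuses small droplets into large ones, and Fabp4 carries the fatty acids that are released. Pnpla2 (adipose triglyceride lipase) cuts the first fatty acid, Lipe (hormone-sensitive lipase) the next, and G0s2 inhibits Pnpla2. Plin2 and Plin3 are made in most cell types and Plin5 mainly in muscle and other tissues that burn fat. Adipocytes are not a cell type of the retina, whereas the tissue behind and around the eyeball holds fat and the eye muscles. For the description the genes were split by what is known of them into 5 members called adipocyte-restricted (Plin1, Cidec, Plin4, Lipe and Fabp4) and 5 members that are widely expressed or made mainly in other tissues (Plin2, Plin3, Plin5, Pnpla2 and G0s2). The name is a coarse label, and which cell types made each transcript in these eyes was not tested.

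The deleted microRNA and its closest relative are shown because they are alike in the stretch that finds targets. In both mature sequences (RefSeq, GRCm38.p6, written 5′ to 3′) the capitals mark the seed, bases 2 to 8, and it is the same. Counted from the 5′ end, the substitution U17A, with the miR-211 base named first, is the one difference over 22 bases. The first lies on the plus strand at chr7:64205831-64205852, within an intron of Trpm1, and the second on the plus strand at chr19:22750610-22750631.
miR-211-5p: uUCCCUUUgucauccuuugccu
miR-204-5p: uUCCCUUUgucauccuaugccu
The gene of miR-211 was listed at 0 in all 11 libraries, WT included, so these data give no check of the deletion, and its host Trpm1 was at 330 to 494 CPM (read pair counts scaled to the size of each library).

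Promoters were read for 9 of the 10 members (RefSeq, 300 bases around a start site, most of them upstream, 12 in all), and 3 are shown for genes whose values are set against each other below. Plin1 and Cidec had nearly the same pattern over libraries and Plin2 another one. Capitals mark matches, on either strand, to the letters TTGCNNAA (a C/EBP-type motif) in Plin1 and Cidec, and to AGGTCA (a nuclear receptor half-site) and CACGTG (an E-box) in Plin2. The searched letters do not overlap each other in these windows.
Plin1, minus strand, chr7:79732727-79733026: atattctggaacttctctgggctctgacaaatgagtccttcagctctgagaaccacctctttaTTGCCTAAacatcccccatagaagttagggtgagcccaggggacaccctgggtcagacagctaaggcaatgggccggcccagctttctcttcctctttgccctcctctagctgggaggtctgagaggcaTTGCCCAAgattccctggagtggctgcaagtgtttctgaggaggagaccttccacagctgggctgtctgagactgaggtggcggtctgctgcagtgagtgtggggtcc
Cidec, second start site, minus strand, chr6:113434715-113435014: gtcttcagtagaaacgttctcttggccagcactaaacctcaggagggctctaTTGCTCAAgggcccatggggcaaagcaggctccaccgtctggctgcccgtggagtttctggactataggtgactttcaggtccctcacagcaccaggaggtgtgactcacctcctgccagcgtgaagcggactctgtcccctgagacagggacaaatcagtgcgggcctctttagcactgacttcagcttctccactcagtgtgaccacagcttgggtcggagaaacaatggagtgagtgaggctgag
Plin2, minus strand, chr4:86670010-86670309: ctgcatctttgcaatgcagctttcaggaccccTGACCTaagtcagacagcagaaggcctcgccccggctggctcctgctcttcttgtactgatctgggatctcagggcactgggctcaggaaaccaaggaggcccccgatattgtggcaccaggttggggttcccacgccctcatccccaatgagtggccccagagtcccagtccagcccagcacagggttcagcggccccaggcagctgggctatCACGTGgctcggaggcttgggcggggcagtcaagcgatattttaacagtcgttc
The matches in Plin1 lie at −187 and −58 from the start site, that in Cidec at −198, and those in Plin2 at −218 (AGGTCA) and −4 (CACGTG). Among all 32851 promoters of the table, 10.8% held TTGCNNAA, 16.3% AGGTCA and 7.15% CACGTG. The TATA box letters TATAAA were searched as well and were in 13.6% of all promoters and in none of the 12 of the members. Of these 12, 2 held TTGCNNAA, 3 AGGTCA and 2 CACGTG. The first start site of Cidec and the promoters of Plin4 and Lipe held no TTGCNNAA.

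The libraries held 20282241 to 36317673 read pairs counted in genes. They came as 2 series, which the labels do not name and which were found by matching their counts to the columns of a table of the study. A mouse-number series (columns named by animal number) holds WT replicates 1 and 2 (WT1, WT2) and KO1, KO2 and KO3, and an age series (columns named by age) holds WT3, WT4, WT5, KO4, KO5 and KO6. In the age series WT5 and KO6 were from 2 months and the other 4 from 1 month of age. Rod markers were high in every library (summed CPM of 5 genes from 24734 to 39334), and so were those of the retinal pigment epithelium (1221 to 1540 over 5 genes). The 10 skeletal muscle markers summed to between 900 and 8967 CPM. Lens markers stood out in WT4 (60622 CPM over 5 genes) and KO3 (18392 CPM), followed by KO6 (2433 CPM), with at most 49.6 CPM in the others.

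The level of adipocyte markers such as Adipoq differed between libraries, and the libraries high for Adipoq were high for the lipid droplet genes. Adiponectin (Adipoq), which is made by adipocytes, was at 41.4, 25.3, 0.34, 9.26 and 4.13 CPM in WT1 to WT5, and at 0.54 (lowest), 0.86 (median) and 19.3 CPM (highest, KO1) in the KO libraries. WT1, WT2, KO1 and WT4 held the 4 highest values of all 10 members and of Adipoq. WT1 was the highest WT library and WT3 the lowest for all 10 members, and KO1 was the highest KO library for all 10. The 8 adipocyte markers summed to 33.5 to 196 CPM in WT and 26.6 to 104 CPM in KO libraries. One of them, Trarg1, was at 11.4 to 32.5 CPM and did not follow Adipoq. It made up most of the lowest sum (21.3 of 26.6 CPM in KO3). Another, Retn, only ran from 2.27 to 10.4 CPM, and leptin was at 0 in 3 libraries. In bulk RNA such as this, fewer cells of a type and less RNA per cell cannot be told apart. Muscle markers were highest in WT1, KO1 and WT2 as well (8067.8 to 8967 CPM, against at most 5145 in the other libraries), and the part of either tissue in the differences below was not tested.

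**Figure D1:**
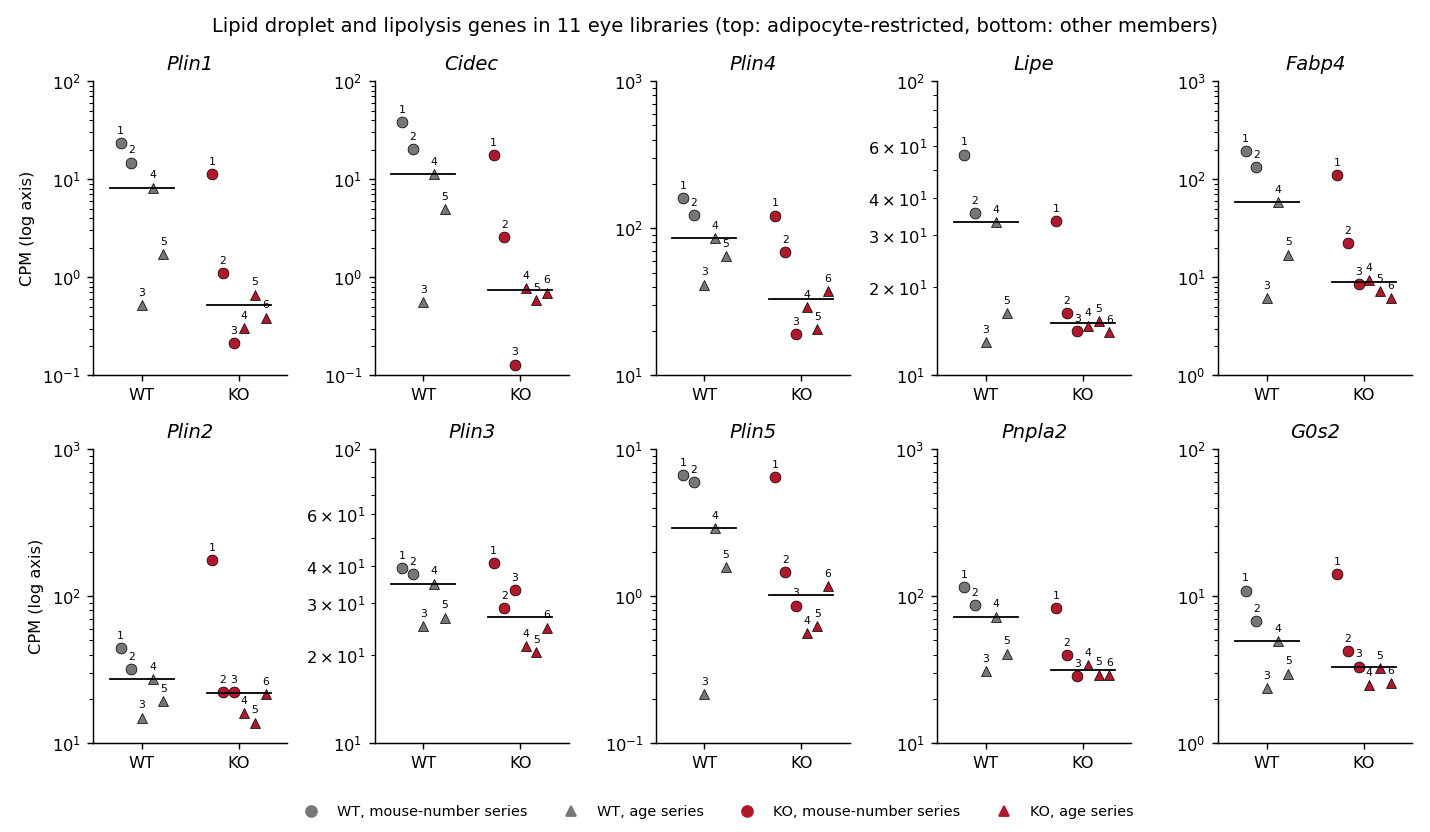
CPM on log axes of the 10 members in 5 WT (grey) and 6 KO (red) libraries; numbers give the replicate, circles and triangles the library series, and bars the group medians. For Plin1 the WT libraries run from 0.52 to 23.5 CPM and the KO libraries from 0.22 to 11.2 CPM, with KO1 apart from the other 5.

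The genotypes were compared to find which transcripts depend on miR-211. Plin1, Cidec and Fabp4 were lower in most KO libraries than in most WT libraries, but the groups overlapped and none of the members passed the test. Plin1 (ENSMUSG00000030546, chr7:79720218-79732903, GRCm38) was at 23.5, 14.7, 0.52, 8.21 and 1.74 CPM in WT1 to WT5. In the KO libraries its lowest value was 0.22, its median 0.53 and its highest 11.2 CPM. Of the 5 WT libraries 4 lay above 5 of the 6 KO libraries, WT3 lay among the KO libraries and KO1 among the high WT ones. The log2 fold change of Plin1 (KO against WT, edgeR likelihood-ratio test) was −2.07 (SE 1.05), with p = 0.0527 before and 1.00 after Benjamini-Hochberg adjustment, and the exact permutation test gave p = 0.0736 (two-sided, as below). The numbers behind the low values were small, with 5 to 40 read pairs in KO2 to KO6 and 12 in WT3.

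Cidec (ENSMUSG00000030278, chr6:113424634-113435760) followed Plin1 closely. It was at 37.9, 20.2, 0.56, 11.2 and 4.96 CPM in WT1 to WT5 and at 0.13, 0.74 and 17.5 CPM (lowest, median, highest) in KO. As for Plin1, KO1 and WT3 were the libraries on the other group's side. Its log2 fold change was −2.01 (SE 1.07, edgeR p = 0.0650, adjusted p = 1.00), and the exact permutation test gave p = 0.0931. Without KO1 the differences of Plin1 and Cidec passed the threshold of 0.1 (log2 fold change −4.16 with an edgeR adjusted p of 0.0140, and −3.96 with 0.0690), where 0.0701% of all genes did, and without WT1 they were −1.44 and −1.31.

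Fabp4 (ENSMUSG00000062515, chr3:10204088-10208576), the most abundant of these 3, spanned 6.12 to 192 CPM in WT and 6.09 to 110 CPM in KO libraries. In WT1 to WT5 it was at 192, 132, 6.12, 58.6 and 17.0 CPM, and its KO median was 8.97 CPM. The KO range thus lay almost wholly within the WT range, with WT1 and WT2 above every KO library, and the KO median lay between the 2 lowest WT values. The log2 fold change was −1.57 (SE 0.89, edgeR p = 0.0793, adjusted p = 1.00) with an exact permutation p of 0.171.

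Plin4 (ENSMUSG00000002831, chr17:56100591-56109803), a perilipin of adipocytes and also of muscle, had more KO libraries below all WT libraries than the other 4 restricted members. Its values were 160, 123, 41.4, 85.3 and 64.4 CPM in WT1 to WT5 against 19.1, 33.2 and 122 CPM (lowest, median, highest) in KO. Of the 6 KO libraries 4 lay below every WT library, and KO1 and KO2 did not. The log2 fold change was −0.94 (SE 0.50, edgeR p = 0.0592, adjusted p = 1.00), and the exact permutation p was 0.0823. Plin4 shares 17 exonic bases with Hdgfl2, which is on the other strand. The neighbouring gene Plin5, on the same strand, ends 1797 bases from it.

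Lipe (ENSMUSG00000003123, chr7:25379527-25398710) was never near 0. It was at 56.2, 35.5, 13.01, 33.2 and 16.2 CPM in WT1 to WT5, and 5 of the 6 KO libraries lay within 14.0 to 16.3 CPM with KO1 at 33.5. The 3 high WT libraries and KO1 stood apart from a floor shared by the other 7 libraries. Its log2 fold change of −0.78 (SE 0.37) had an edgeR p of 0.0377 before and 1.00 after adjustment, and the exact permutation p was 0.143. Of its 5886 exonic bases 918 are shared with 4732471J01Rik on the opposite strand, which was at most at 0.31 CPM.

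All of the other members had lower medians in KO too, as the restricted members had, and the groups again overlapped. Pnpla2 (ENSMUSG00000025509, chr7:141455198-141460743) was at 115, 87.3, 30.8, 72.6 and 40.7 CPM in WT1 to WT5 and at 28.6, 31.7 and 82.9 CPM (lowest, median, highest) in KO. Its library order was that of Plin1 for the 6 highest libraries. The log2 fold change was −0.77 (SE 0.38, edgeR p = 0.0408, adjusted p = 1.00), with an exact permutation p of 0.102. Plin5 (ENSMUSG00000011305, chr17:56111601-56117596) had the lowest WT median of the members. It was at 6.62, 5.93, 0.22, 2.90 and 1.57 CPM in WT and 0.56, 1.01 and 6.46 CPM in KO, where the medians of Plin1 (0.53 CPM) and Cidec (0.74 CPM) were lower. WT3 was the lowest of all 11 libraries for Plin5, with 5 read pairs. Its log2 fold change was −0.90 (SE 0.78, edgeR p = 0.247, adjusted p = 1.00), and the exact permutation p was 0.405.

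Plin3 (ENSMUSG00000024197, chr17:56277476-56292873) was the steadiest member, within 20.4 to 40.8 CPM in all libraries. Its WT values were 39.3, 37.5, 24.99, 34.9 and 26.7 CPM and its KO median was 26.8 CPM, for a log2 fold change of −0.21 (SE 0.21, edgeR p = 0.299, adjusted p = 1.00, exact permutation p = 0.290). G0s2 (ENSMUSG00000009633, chr1:193272161-193273217) was at 10.9, 6.75, 2.37, 4.95 and 2.98 CPM in WT and at 2.50, 3.29 and 14.1 CPM in KO. The inhibitor was thus highest in a KO library, KO1, and its log2 fold change was −0.17 (SE 0.53, edgeR p = 0.754, adjusted p = 1.00, exact permutation p = 0.639), which became 0.23 without WT1.

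Plin2 (ENSMUSG00000028494, chr4:86648386-86670060) was the one member with a fold change above 0, and its sign rested on 1 library. It was at 44.5, 31.7, 14.95, 27.4 and 19.3 CPM in WT1 to WT5, and at 13.8 (lowest), 21.9 (median) and 176 CPM (highest, KO1) in KO. Every KO library but KO1 lay within the WT range or just below it. The log2 fold change was 0.71 (SE 0.65, edgeR p = 0.276, adjusted p = 1.00) with an exact permutation p of 0.944, and without KO1 it was −0.52. Hsd17b11, a lipid droplet dehydrogenase singled out after its values were seen, was likewise at 143 CPM in KO1 and at most 41.4 CPM elsewhere.

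As a group, 0 of the 10 members were called at an adjusted p under 0.1 by edgeR's likelihood-ratio test, by its quasi-likelihood test or by DESeq2 (which gave no adjusted p for Plin2), where these called 0.00634% (1 gene, Xist), 0.00% and 0.0127% of all genes. At an unadjusted p under 0.05, 2 members (Lipe and Pnpla2) were lower, or 2 of 10 against 2.09% of all genes (1.77% lower). Of the 10 fold changes 9 were below 0, against 48.9% of all genes. The median log2 fold change was −0.84 over the members, −1.57 over the 5 restricted and −0.21 over the 5 other members, beside 0.00 over all genes tested. The 2 classes overlapped, with the restricted Lipe (−0.78) and Plin4 (−0.94) beside Pnpla2 (−0.77) and Plin5 (−0.90). Markers of several other tissues lay on the same side, with 10 of 10 muscle markers (median −0.54), 5 of 5 macrophage (−0.49), 4 of 5 endothelial (−0.33) and 4 of 5 adipocyte markers (−0.87) below 0. Of these 0 were called by edgeR (4 at an unadjusted p under 0.05). Lens (4 of 4, −1.97), blood (3 of 3, −0.67), brown fat (2 of 2, −0.76) and ocular surface epithelium markers (3 of 5, −0.36) were also mostly below 0. Rod (1 of 5, median 0.10) and retinal pigment epithelium markers (1 of 4, 0.06) were not. The part of these tissues in the members' differences was not tested. In no member did every KO library lie below every WT library (0.0761% of all genes).

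Xist, made from the inactive X chromosome of females, was at 794 to 1632 CPM in WT1, WT3 and WT5 and at most at 1.29 CPM in the others. Sex is therefore unequal between the genotypes, and its part in the genotype differences was not tested. In the 3 WT libraries with Xist, Plin1 ranged from 0.52 to 23.5 CPM, and in the 2 without it was at 8.21 and 14.7 CPM, inside that range. The same held for the other 9 members, whose values in WT2 and WT4 fell between the lowest and the highest of WT1, WT3 and WT5. For every member WT1 was the highest and WT3 the lowest WT library, and both had Xist. The place of WT2 and WT4 between them was therefore already fixed and is no test of sex.

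Every member was lower on average in the age series than in the mouse-number series, but libraries of the 2 series overlapped. The highest libraries were WT1, WT2 and KO1 of the mouse-number series for every member. KO3 of the same series was the lowest of all 11 libraries for Plin1, Plin4, Cidec and Pnpla2. In a fit with genotype and series, all 10 were called lower in the age series, where 36.3% of all genes were called and 21.7% lower, so that calls were common in this comparison. The log2 differences (age minus mouse-number, edgeR) were −2.88 (SE 0.85) for Cidec, −2.86 (SE 0.83) for Plin1 and −2.60 (SE 0.62) for Fabp4. They were −1.94 for Plin5, −1.58 for Plin2, −1.37 for G0s2, −1.22 for Plin4, −0.87 for Pnpla2, −0.81 for Lipe and −0.53 for Plin3. The adjusted p-values ran from 0.00064 (Plin3) to 0.0280 (Lipe), and the median difference was −1.47 against −0.00 for all genes. When single libraries were left out, 9 or 10 members stayed called, with Lipe lost without WT1 or without KO1. All 10 muscle markers were also called lower in the age series (median −1.59), as were 4 of the 5 adipocyte markers tested, while the other one, Trarg1, was called higher (0.41, edgeR adjusted p = 0.0841). Markers of the ocular surface epithelium (4 of 5, median −1.55), endothelium (4 of 5, median −0.46) and brown fat (2 of 2, median −2.10) were called lower as well, and the part of these tissues in the members' differences was not tested. Age, time of preparation and dissection cannot be told apart in this comparison.

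Within each series alone most members had fold changes below 0, 9 of 10 in the mouse-number series (all but Plin2) and 10 of 10 in the age series. Their median log2 fold change was −1.07 (mouse-number) and −0.80 (age), beside 0.00 over all genes in both. By edgeR 0 members were called in either, where 0.0444% (mouse-number) and 0.241% (age) of all genes were. At an unadjusted p under 0.05, 2 members passed in the mouse-number series and 6 in the age series, against 3.27% and 4.12% of all genes. In the mouse-number series (2 WT, 3 KO) every KO library lay below both WT libraries for 6 members (Plin1, Plin4, Cidec, Pnpla2, Lipe and Fabp4), where 10.7% of all genes did so. In the age series (3 WT, 3 KO) this held for Plin3 and Plin4, against 5.98% of all genes. WT3, a 1-month library, lay below all 3 KO libraries of that series for Plin5, Cidec, Lipe and G0s2. For Cidec it was at 0.56 CPM where the 3 KO libraries were at 0.59 to 0.77 CPM and the other WT libraries at 4.96 and 11.2 CPM.

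With the series as a covariate the standard errors were smaller and 7 of 10 members had an unadjusted p under 0.05, all lower in KO, against 6.57% of all genes (5.23% lower). These were Plin1 (log2 fold change −2.60, SE 0.83), Cidec (−2.61, SE 0.85), Fabp4 (−1.82, SE 0.62), Plin4 (−1.09, SE 0.38), Pnpla2 (−0.80), Lipe (−0.77) and Plin3 (−0.28). After adjustment 0 members were called by edgeR (lowest adjusted p 0.395), where 0.0634% of all genes were. The genotype difference was not shown to differ between series, with 0 members called for the interaction in edgeR (0.0190% of all genes) and 0 at an unadjusted p under 0.05 (2.71% of all genes). For Plin1 the interaction was −0.74 on the log2 scale with an SE of 1.71, which leaves room for a large difference in either direction.

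**Figure D2:**
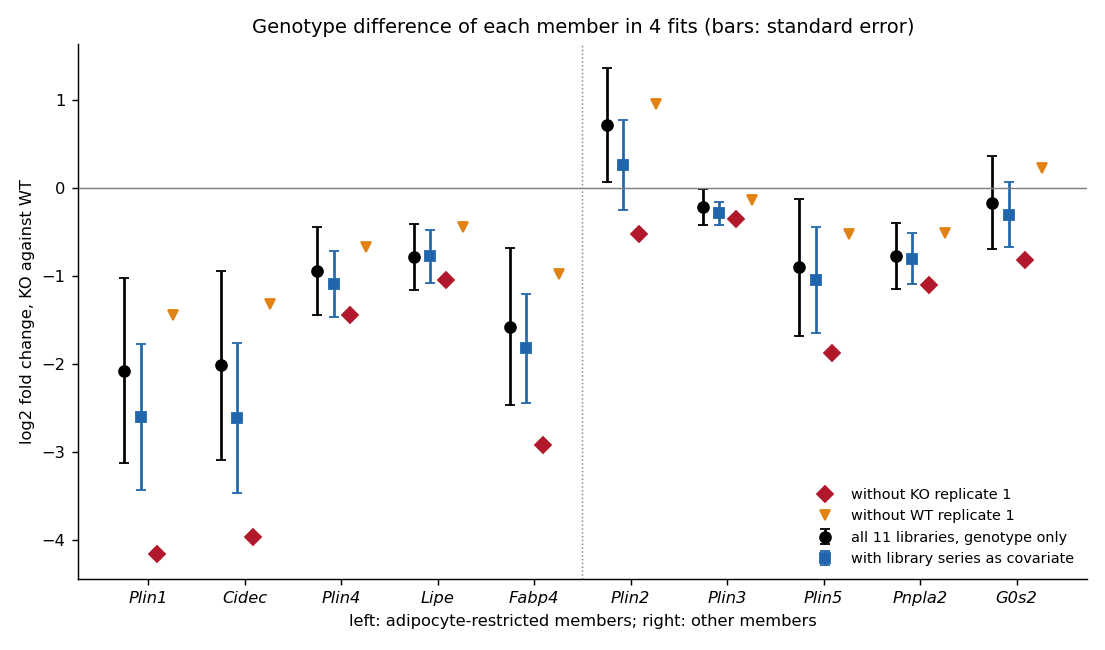
Log2 fold change of each member, KO against WT, from edgeR with genotype alone (black, bars are SE), with the library series as covariate (blue, bars are SE), without KO1 (red) and without WT1 (orange). The 5 restricted members stay below 0 in all 4 fits, from −4.16 to −0.44, whereas Plin2 and G0s2 lie on both sides of 0.

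Levels of different genes were set side by side as FPKM, which divides by transcript length. In WT the medians ran from 87.0 FPKM for Fabp4 over 32.7 for Pnpla2, 14.3 for Plin3, 13.6 for Plin2, 12.9 for Plin4, 10.5 for Lipe, 5.83 for Cidec, 5.44 for G0s2 and 3.93 for Plin1 to 1.30 for Plin5. The WT ranges of every pair of neighbours in this order overlapped. Within libraries some steps were steady, with G0s2 above Plin1 in 11 of 11 libraries, Pnpla2 above Plin3 in 10 and Plin2 above Plin4 in 10, while Fabp4 exceeded Pnpla2 in 6. In KO the order differed, with Pnpla2 (17.8 FPKM) above Fabp4 (15.7) and Cidec (0.50) below Plin5 (0.53).

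**Figure D3:**
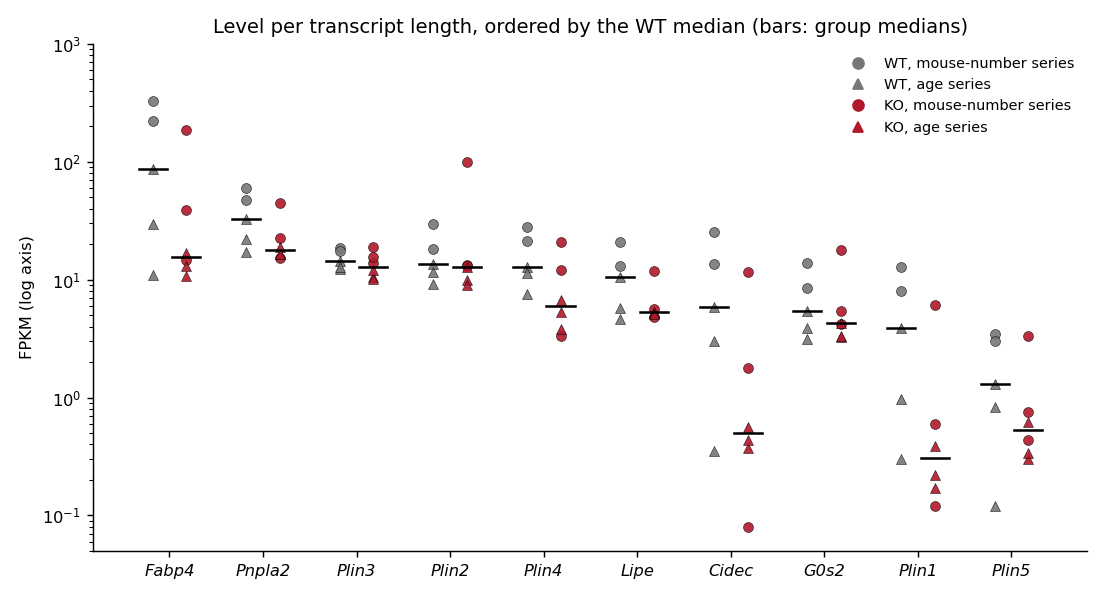
FPKM on a log axis of each member in WT (grey) and KO (red) libraries, ordered by the WT median, with bars at the group medians. The restricted members Cidec, Plin1 and Fabp4, and also Plin5, spread over a wider range of levels than Plin3, whose 11 values lie close together. The restricted Lipe, at 4.62 to 20.9 FPKM, spread less than Plin2, at 9.03 to 99.2 FPKM.

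The restricted members moved together over the libraries, and so did some of the other members. Pearson's r of log2 CPM over the 11 libraries was 0.857 to 0.973 for their 10 pairs, as a description only, since the points share library, series and tissue content. Plin1 and Adipoq had an r of 0.969. Pnpla2, although widely expressed, was as close to them, with an r of 0.980 to Plin1 and 0.988 to Fabp4. Plin5 had an r of 0.849 (Plin4) to 0.939 (Fabp4) with the restricted members, and G0s2 one of 0.797 (Plin4) to 0.917 (Fabp4). For Plin3 it was 0.726 (Cidec) to 0.859 (Fabp4) and for Plin2 0.655 (Cidec) to 0.730 (Fabp4). Plin2 and Plin3 had an r of 0.782 with each other.

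Set against Adipoq, the members differed in how closely they kept to it. The ratio of Plin1 CPM to Adipoq CPM stayed between 0.31 and 1.5, a 4.80-fold range, that of Fabp4 within a 4.32-fold and that of Cidec within an 8.67-fold range. Plin5 followed with a 13.4-fold range, G0s2 with 26.1-fold and Lipe with 27.8-fold. For Plin3 the ratio ran over a 76.4-fold range, for Plin2 over 40.4-fold, for Pnpla2 over 32.3-fold and for Plin4 over 31.1-fold. Plin4, Lipe and Pnpla2 thus kept a level in libraries with little Adipoq, whereas Plin1, Cidec and Fabp4 were low where it was low. For Plin4 and Lipe these values do not bear out the label adipocyte-restricted. The median ratio to Adipoq was 0.58 in WT and 0.48 in KO for Plin1 and 1.2 and 0.88 for Cidec, whereas for Fabp4 it was 5.23 in WT and 9.68 in KO. The lowest ratio of Cidec, 0.19 in KO3, rests on 3 read pairs.

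**Figure D4:**
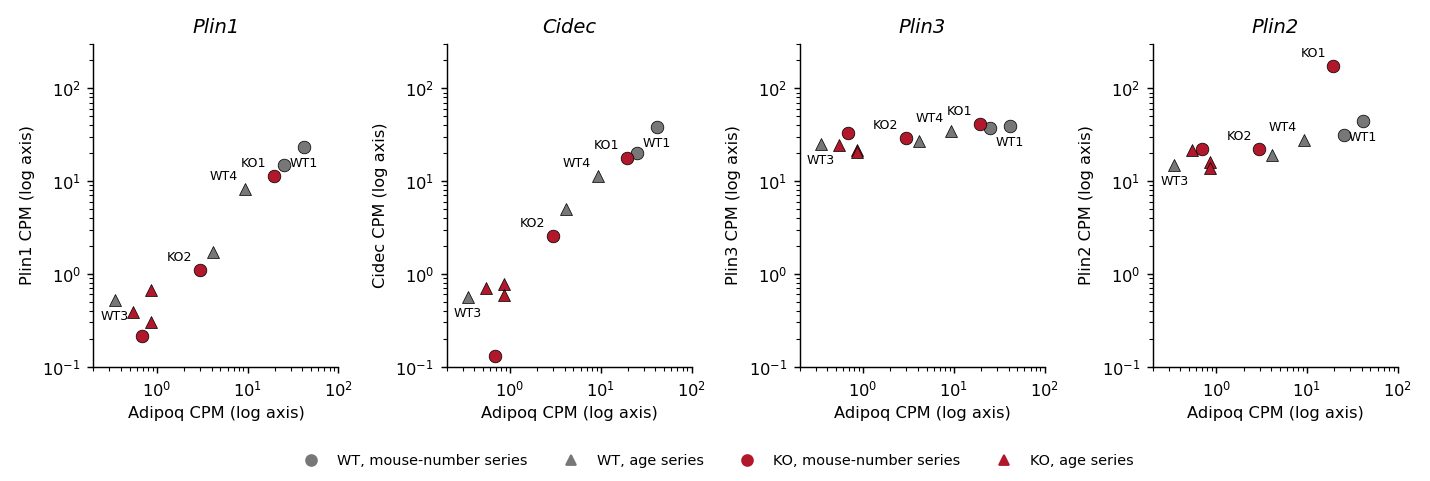
CPM of Plin1, Cidec, Plin3 and Plin2 against CPM of Adipoq, log axes, 1 point per library, with genotype as colour and series as shape. Plin1 and Cidec are high where Adipoq is high, with no clear rise among the libraries with Adipoq under 1 CPM. Plin3 stays between 20.4 and 40.8 CPM and also rises with Adipoq (r = 0.817 of log2 CPM). KO1 lies far above the other libraries for Plin2 at 176 CPM.

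The genes most like Plin1 over the 11 libraries, among 15757 tested genes outside the list, were Pck1 (r = 0.978), the key enzyme of glyceroneogenesis, Kank3 (0.975), haptoglobin (Hp, 0.970), the amino acid transporter Slc36a2 (0.970) and adipsin (Cfd, 0.969). For Plin2 others stood near the top, among them Tlcd2 (0.976), the lysosomal cholesterol carrier Npc2 (0.972), the fatty acid elongase Elovl1 (0.971) and Sptlc1 (0.969), a subunit of the enzyme that starts sphingolipid synthesis.

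A wider list of 29 droplet and lipolysis genes (cofactors, other droplet proteins, triglyceride synthesis, adrenergic signalling) had a median difference near 0. Fold changes lay below 0 for 19 of the list's 27 tested genes, against 48.9% of all genes. Of its 27 tested genes 0 were called between genotypes by edgeR's likelihood-ratio or quasi-likelihood test or by DESeq2, where these called 0.00634%, 0.00% and 0.0127% of all genes. At an unadjusted p under 0.05, 2 were lower (1.77% of all genes were), and the median log2 fold change was −0.08 (beside 0.00 over all genes). Those 2 were Pde3b (−0.58, SE 0.28), the phosphodiesterase that opposes lipolysis, and Fabp5 (−2.25, SE 1.11). The fold change of Fabp5 rests on WT4, with 2075 CPM against at most 297 CPM elsewhere, which is also the library with the most lens RNA.

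With the series as covariate 5 genes of the wider list were lower at an unadjusted p under 0.05 (5.23% of all genes were) and 0 were called by edgeR (0.0634% of all genes). These were Pde3b (−0.62), Dgat2 (−0.74), the enzyme of the last step of triglyceride synthesis, the glycerol channel Aqp7 (−1.28), Ces1d (−0.89) and Fitm1 (−0.79). The monoacylglycerol lipase Mgll, which cuts the last fatty acid, was the most abundant gene of the list and near level between genotypes, at 324 ± 29.9 CPM (SD, n = 5) in WT and 319 ± 36.5 CPM (n = 6) in KO. Acsl1, which activates fatty acids, was at 157 ± 55.4 and 131 ± 36.9 CPM. In the series comparison 14 of the 27 were called lower in the age series and 0 higher, where 21.7% of all genes were called lower.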

How the data were processed

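RNA was sequenced as 100-nt paired reads (Illumina TruSeq libraries). The authors aligned and counted reads with RSEM 1.2.19 at its standard settings, which take no account of strand, against Gencode M4 and deposited, for each gene and library, the expected count, not scaled for library size. They also deposited FPKM, scaled by the authors for transcript length and mapped fragments, which were used for levels between genes without a test. Groups came from the labels. Symbols and positions came from Gencode M21 (GRCm38), where 95.4% of the 38393 identifiers had a symbol.

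Expected counts were rounded. Genes at 1 CPM or more in at least 5 of 11 libraries were fitted with edgeR 4.0.16 (R 4.3.3, TMM, glmFit and glmLRT, genotype alone), and p-values were adjusted over all 15767 genes (Benjamini-Hochberg, threshold 0.1). The design follows the study's methods. CPM are TMM-scaled. One CPM is 20.3 read pairs at the lowest depth, so values under about 1 CPM rest on few reads. Library series were matched through proportional counts (coefficient of variation at most 0.193%, next best column at least 24.5%). Permutation tests were two-sided, on log2 CPM (prior count 2), over all splits into 5 and 6 (smallest possible p 0.00216). On simulated data of the KO against WT comparison with 15674 genes, the likelihood-ratio test found 83 of 100 genes with a log2 change of 1. It found 98 of 100 with a change of 2, with 7.18% false calls among 195. In the measured data Plin1 (log2 fold change −2.07, SE 1.05) and Cidec (−2.01, SE 1.07) were not called. How often a change is found in genes as variable between libraries as these was not tested.

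The members, gene lists and motifs were chosen with earlier results of these data known. All members are named. Genes of the wider list are named at an unadjusted p under 0.05 or among its 3 highest, and the 5 genes most like Plin1 and Plin2 by r, of which 1 is not reported here. Comparisons of the authors' table were not used. Alternatives were DESeq2 1.42.0, the quasi-likelihood test, other scalings and filters, unrounded counts, the series as covariate or alone, the replicate number as a block, and leaving out each library.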

Additional observations from a re-analysis of the deposited data

Results flagged for a closer look

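In 8 of the 20 groups examined (10 members in 2 genotypes), 1 library lay far from the others by Dixon's criterion on CPM. In all 8 it was KO1. Chance flags about 1 group in 20 only for normally distributed values, which CPM need not be, and the members are not independent of each other. Whether the flags hold on a log scale was not tested. KO1 was at 176 CPM for Plin2, 110 CPM for Fabp4, 82.9 CPM for Pnpla2, 33.5 CPM for Lipe, 17.5 CPM for Cidec, 14.1 CPM for G0s2, 11.2 CPM for Plin1 and 6.46 CPM for Plin5. For Plin2 and G0s2 this was above every WT library as well. For the other 6 it was within the WT range. KO1 also held the most muscle RNA of the KO libraries (8726 CPM over 10 markers), and the part of this in its values was not tested.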

How the results depend on the processing

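Depth limits Plin1, Cidec and Plin5, which rest on 3 to 20 read pairs in some libraries and are not tested when at least 10 counts in every library are asked for, leaving 7 of 10 members. The number of genes called between genotypes was 1, and it was 0 with the quasi-likelihood test, 2 with DESeq2, with DESeq2's size factors and with a filter of at least 1 count, 10 with the series as covariate, 7 in the mouse-number series alone and 38 in the age series alone, and 1 to 11 when single libraries were left out, with 11 without KO1 and 2 without WT2. Members called were 0 to 2 when single libraries were left out, with Plin1 and Cidec called without KO1. When single libraries were left out, Plin2 ran from −0.52 (without KO1) to 0.95 and G0s2 from −0.82 to 0.23 (without WT1), and Plin2 was −0.25 in the age series alone. DESeq2 gave no adjusted p for Plin2. The cause of these shifts was not tested.

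The replicate numbers were not taken as pairs. Of the 5 same-numbered pairs 3 had a correlation of deviations over 0.1 (−0.33 to 0.63), and not every library correlated best with its own number. Those 3 pairs (WT1 and KO1, WT2 and KO2, WT5 and KO5) each lay within 1 series. The correlations therefore cannot decide whether the numbers pair the libraries. Blocking on replicate number gave 10 called genes, 2 of them members (Cidec, −2.65, and Plin4, −1.11).

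The 7 members other than Plin1, Cidec and Plin4 kept their side of the threshold under every alternative run. The 5 restricted members, Pnpla2, Plin3 and Plin5 stayed below 0 under all of them.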
